A study of Rattus norvegicus with 6 samples.

Results

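The cytosolic ribosomal proteins are the protein parts of the ribosome that works in the cytoplasm. Genes were taken by symbol, as those whose platform symbol begins with Rpl or Rps and a digit or is Rplp0, Rplp1, Rplp2 or Rpsa, without the Rps6k kinase genes and without symbols of pseudogenes ending in -ps. Each gene was read from its brightest probe set. The rule gave 48 genes of 14217 genes with a probe set of 1 symbol, 33 of them of the large subunit and 15 of the small subunit. Rplp1 and Rplp2 were not analysed here. A further 30 probe sets list several symbols of the family, mostly a gene with its copies and pseudogenes, and these are given as a group without gene names.

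Expression was measured with 6 Affymetrix arrays in cultured heart muscle cells of Wistar rats 1 to 2 days old, with 2 arrays per group. The stretch group was held under biaxial stretch to 112% for 24 h on a collagen-coated silicone membrane, after 36 h of culture and 24 h without serum. The phenylephrine group received phenylephrine, an agonist of the α1-adrenergic receptor, at 50 µmol/l. The treatment text of that group also names endothelin-1 and angiotensin-II, and the group was taken as phenylephrine alone from its sample titles and the design text. The control group was untreated. The labels give the membrane and the serum-free period for stretched cells alone, and no source used here gives the growth surface of the phenylephrine and control cells or the length of the phenylephrine treatment. The myocytes of all groups were separated from fibroblasts on a Percoll gradient, and RNA of several preparations was pooled. Separate cultures are not stated for the 2 arrays of a group, so p-values measure only the spread between arrays, which may be technical.

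A ribosome consists of a large subunit, which joins amino acids into a chain, and a small subunit, which reads the mRNA. Each ribosome carries about one copy of most of these proteins, and a growing cell makes more of them. A heart muscle cell under a hypertrophic stimulus gains protein mass and is known to raise its ribosome content. Production of ribosomal proteins is set to a large part by translation rather than by mRNA amount, because their mRNAs start with a run of pyrimidine bases, the 5′ terminal oligopyrimidine tract, through which the kinase mTOR and the RNA-binding protein Larp1 control their use on ribosomes. The arrays measure the amount of mRNA and do not see its translation.

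Start sites of 6 members are printed, 4 with this tract near the annotated start and 2 with none there. The tract was searched on the sense strand as a C followed by at least 4 bases that are each C or T, beginning within 10 bases of the annotated start on either side. RefSeq windows of GRCr8 were matched by gene identifier for 41 of 48 members. The tract was found in 26 of 41, or 63.4%, against 27.8% of 33469 promoters of all genes. It began exactly at the annotated start in 11 of 41, or 26.8%, against 2.63% of all promoters. Annotated starts can be several bases from the true one, which bears on both shares. Each window below runs from 40 bases before the start to 25 bases from the start on, on the gene's own strand, and capitals mark the tract.
Rpl12 (chr3:36661900-36661964, plus strand): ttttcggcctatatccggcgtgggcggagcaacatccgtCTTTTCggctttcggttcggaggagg
Rps24 (chr16:96477-96541, plus strand): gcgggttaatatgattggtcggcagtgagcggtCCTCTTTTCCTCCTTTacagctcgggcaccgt
Rpl4 (chr8:73566437-73566501, plus strand): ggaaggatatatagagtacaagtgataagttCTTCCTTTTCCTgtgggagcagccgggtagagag
Rps28 (chr7:15311309-15311373, minus strand): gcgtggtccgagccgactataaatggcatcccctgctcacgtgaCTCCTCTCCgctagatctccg
Rpl18 (chr1:105325230-105325294, plus strand): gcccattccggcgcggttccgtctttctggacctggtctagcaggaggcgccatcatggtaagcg
Rpl3l (chr10:14258406-14258470, plus strand): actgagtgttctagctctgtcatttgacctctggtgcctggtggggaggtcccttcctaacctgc
The first 4 carry a tract by this rule, of 6, 16, 12 and 9 bases. The window of Rpl18 holds none within 10 bases of its annotated start, and neither does that of Rpl3l, the muscle paralog of Rpl3. Farther from the start, both windows hold runs of C and T that would meet the rule on letters. The letters CCGGAAG, the core of binding sites of ETS family factors, stood on either strand of the whole promoter window in 10 of 41 member promoters (24.4%), against 8.75% of all promoters. By subunit these were 9 of 28 large (32.1%) and 1 of 13 small subunit promoters (7.69%). The letters TATAA and CACGTG, searched in the same way, stood in 7 (17.1%) and 3 (7.32%) of 41. The shares of all promoters were 26.2% and 6.42%. These matches describe the sequence and show no use of a site.

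The arrays had medians that differed by 0.038 log2. Heart muscle markers were bright in all groups. The 7 markers found averaged 14.10 to 14.32 log2 on stretch arrays, 14.24 to 14.37 on phenylephrine arrays and 14.06 to 14.17 on control arrays. The 8 fibroblast markers averaged 11.64 to 11.66 on stretch arrays, 11.36 to 11.49 on phenylephrine arrays and 11.97 to 11.99 on control arrays, and 4 of 8 fell with phenylephrine and 0 of 8 with stretch in limma. Of the 7 heart muscle markers 1 rose with phenylephrine and 0 with stretch. With cultures that hold both, fewer cells of a type and less RNA per cell cannot be told apart. Fibroblasts too express ribosomal proteins, and the part of this in the values below was not tested. Of the other marker lists, endothelial genes had 0 calls with stretch and 1 fall with phenylephrine among 5 found. Smooth muscle and pericyte genes had 1 rise with stretch and 2 rises with phenylephrine among 6. Macrophage and leukocyte genes had 0 calls with stretch and 1 fall with phenylephrine among 6, and red blood cell genes 0 calls among 3. Beside the calls in all these marker lists, 0.345% of all probe sets passed in limma with stretch and 3.6% with phenylephrine, in either direction. The cell type behind the calls was not tested.

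The ribosomal protein probe sets fell into a bright and a dim class. In 38 of 48 genes the mean over the 6 arrays was 13 log2 or more, a limit set after the values were seen. The other 10 were Rpl26l1, Rpl28, Rpl30, Rpl39, Rpl39l1, Rpl3l, Rpl7l1, Rps13, Rps27l and Rps4y2, with means under 13. Rpl28, Rpl30, Rpl39 and Rps13 encode regular parts of the ribosome, and a dim probe set need not mean little mRNA, since probe sets differ in how well they bind. Of the 30 probe sets with several family symbols, 2 list Rpl30 and 1 lists Rps13 among others. Over all 30, of which 26 were bright, the median of the means was 14.02 log2.

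Most members were lowest on the same array. Control replicate 2 was the lowest of the 6 arrays in 39 of 48 members. Relative to each gene's mean over the 6 arrays, the bright members had a median of -0.05 and 0.13 log2 on stretch replicates 1 and 2, of 0.06 and 0.03 on phenylephrine replicates 1 and 2, and of 0.0044 and -0.17 on control replicates 1 and 2. Stretch replicate 2 was the highest array in 23 of 48 members. Control replicate 1 lay above control replicate 2 in all 38 bright members, and stretch replicate 2 lay above stretch replicate 1 in 35 of 38. The same pattern stood in the 371 other probe sets with a mean of at least 13 log2, with medians of -0.06 and 0.08 on the stretch arrays, 0.06 and 0.02 on the phenylephrine arrays and 0.02 and -0.12 on the control arrays. Over the bright members replicate 1 minus replicate 2 had a median of -0.19 within stretch, 0.022 within phenylephrine and 0.16 within control, while the median change between groups was 0.13 for stretch against control and 0.11 for phenylephrine against control. The part of this shift at the bright end of the arrays in the changes below was not tested.

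**Figure D1:**
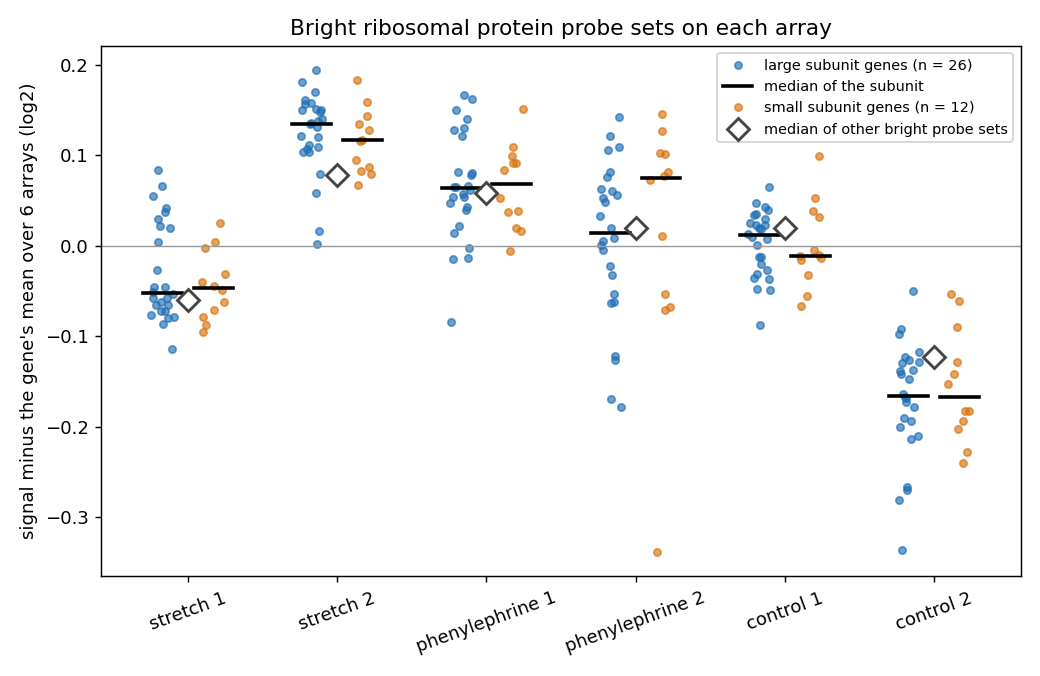
Signal of the 38 bright members on each array, as the difference from the gene's own mean over 6 arrays (log2); dots are genes (26 large subunit, blue; 12 small subunit, orange), black bars are subunit medians and diamonds the median of 371 other bright probe sets. Control replicate 2 lies lowest, at -0.17 for the bright members, and stretch replicate 2 highest, at 0.13.

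For the mechanical stimulus, stretched cells were set against untreated cells. No ribosomal protein gene passed the test. In limma 0 of 48 members passed an adjusted p of 0.05, beside 0.345% of all 31042 probe sets, and 0 of 48 had an unadjusted p under 0.05, beside 5.54%. The median of the members was 0.12 log2, a ratio of 1.08, against 0.0056 log2 for all probe sets and 0.05 for the 371 other bright ones. Values above 0 were seen for 45 of 48 members, beside 52.8% of all probe sets and 75.7% of the other bright ones. The arrays of stretch all lay above those of control in 10 of 48 members (20.8%), close to the 19.4% of all probe sets. Of the other bright ones 24.5% did so. In 0 of 48 the stretch arrays lay below without overlap, beside 16.5% of all probe sets and 4.04% of the other bright ones. The 95% intervals of the 48 changes ran from -0.27 to 0.58 log2. A p that misses the threshold does not show that a gene was at the same level in both groups. The median of the members was 0.04 when either control replicate 2 or stretch replicate 2 was left out, and 0.19 when either control replicate 1 or stretch replicate 1 was left out. Quantile normalization, which gives all arrays one distribution, brought it to 0.03.

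Rpl4, a long-tailed protein of the large subunit that lines the exit tunnel, had the largest value with stretch. Its signals were 13.32 and 13.35 log2 on stretch arrays and 13.40 and 13.23 on phenylephrine arrays, against 13.21 and 12.90 on control arrays. Both stretch arrays lay above both controls, and the 2 controls differed by more than the stretch mean differed from the higher control. The change was 0.28 ± 0.13 log2 (SE, n = 2 arrays per group; adjusted p = 0.941 in limma), with a 95% interval of -0.01 to 0.58. After it came Rpl7 (0.18 ± 0.12), Rpl12 of the stalk base (0.18 ± 0.10), Rpl35 of the tunnel exit (0.18 ± 0.11), Rpl18 (0.18 ± 0.11) and Rpl13a (0.17 ± 0.10), known also for a role in translation control. At the low end of the large subunit stood Rpl30 (-0.04 ± 0.07), Rpl26l1 (-0.03 ± 0.09) and Rpl28 (-0.03 ± 0.08), all read from dim probe sets, followed by the bright Rpl7a (0.03 ± 0.11) and the dim Rpl3l (0.06 ± 0.06).

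The small subunit had values of 0.06 to 0.16 log2 with stretch, all 15 above 0. The highest were Rps27l, a paralog of Rps27 that is a p53 target in human cells (0.16 ± 0.13), Rps9 (0.16 ± 0.11), Rps3 at the mRNA entry (0.15 ± 0.11), Rpsa, which is also known as the laminin receptor (0.15 ± 0.11), and Rps24 (0.14 ± 0.10). The lowest were Rps4y2 (0.06 ± 0.11), Rps15 (0.07 ± 0.12), Rps29 (0.07 ± 0.10), Rps13 (0.08 ± 0.06) and Rps15a (0.08 ± 0.10). Rps6, the substrate of S6 kinase that is used as a readout of mTOR activity at the protein level, had 14.06 and 14.19 log2 on stretch arrays, against 14.09 and 13.95 on control arrays. The groups overlapped, and the change was 0.10 ± 0.10 (95% interval -0.12 to 0.33).

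For the chemical stimulus, phenylephrine-treated cells were set against untreated cells. Again 0 of 48 members passed in limma, beside 3.6% of all probe sets, and 4 of 48 had an unadjusted p under 0.05 (8.33%), beside 16.6%. The median was 0.098 log2, a ratio of 1.07, against 0.0060 for all probe sets and 0.08 for the other bright ones. Values above 0 were seen in 43 of 48, beside 52.3% of all probe sets and 71.2% of the other bright ones. The phenylephrine arrays lay above both control arrays in 19 of 48 members (39.6%). Of all probe sets 21.5% did so, and of the other bright ones 39.6%. In 1 of 48 the phenylephrine arrays lay below, beside 22.1% of all probe sets and 9.97% of the other bright ones. The 95% intervals ran from -0.46 to 0.56 log2. The median of the members depended on the setting. It was 0.02 without control replicate 2, 0.18 without control replicate 1, 0.07 without phenylephrine replicate 1 and -0.003 under quantile normalization, where 24 of 48 values lay above 0.

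The 4 members with the smallest unadjusted p were Rpl18, Rpl12, Rpsa and Rps24. Rpl18 had 14.20 and 14.20 log2 on phenylephrine arrays, against 14.05 and 13.81 on control arrays, with no overlap. Its change was 0.27 ± 0.11 log2 (adjusted p = 0.268 in limma). Rpsa had 14.03 and 14.09 on phenylephrine arrays, against 13.88 and 13.74 on control arrays, also with no overlap, a change of 0.25 ± 0.11 (adjusted p = 0.288). Rpl12, which with Rplp0 forms the base of the stalk that recruits elongation factors, had 14.05 and 14.12 on phenylephrine arrays, against 13.89 and 13.79 on control arrays. Its change was 0.24 ± 0.10 (adjusted p = 0.286). Rps24 had 14.43 and 14.43 on phenylephrine arrays, against 14.27 and 14.13 on control arrays, a change of 0.23 ± 0.10 (adjusted p = 0.294). In each of these 4 genes the phenylephrine arrays lay closer to each other than the control arrays did.

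Other high values with phenylephrine were those of Rpl4 (0.26 ± 0.13), Rpl14 (0.22 ± 0.12), Rplp0 (0.20 ± 0.10), Rps9 (0.20 ± 0.11), Rps3 (0.16 ± 0.11) and Rps3a (0.16 ± 0.10). At the other end, Rps4y2, a paralog of Rps4x, had 9.34 and 9.33 log2 on phenylephrine arrays, against 9.58 and 9.40 on control arrays. It was the 1 member with both phenylephrine arrays below both controls, at -0.16 ± 0.11 (adjusted p = 0.543). Rps28 had 14.08 and 13.59 on phenylephrine arrays, against 13.98 and 13.87 on control arrays, and its value of -0.09 ± 0.16 joins 2 arrays that lay on both sides of the controls. Rpl28 (-0.09 ± 0.08), Rpl23a (-0.01 ± 0.12) and Rpl7a (-0.01 ± 0.11) were the lowest of the large subunit, before Rpl26l1 (0.02 ± 0.09) and Rpl30 (0.03 ± 0.07). In the small subunit Rps29 (0.04 ± 0.10), Rps13 (0.04 ± 0.06) and Rps15a (0.05 ± 0.10) followed Rps28. Rps6 had 14.13 and 14.21 on phenylephrine arrays, above both controls, with a change of 0.14 ± 0.10 (adjusted p = 0.533).

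The SD of the changes over the 48 genes was 0.09 log2 for phenylephrine against control and 0.06 for stretch against control. Both were smaller than the median SE of a single gene, 0.11. A shift of an array that all members share adds to the SE but not to this SD. The SD and the SE thus do not measure the same spread. Phenylephrine replicates 1 and 2 differed by -0.14 to 0.49 log2 over the members, with Rps28 at the upper end. Rpl21, with 13.58 and 13.24 log2 on phenylephrine arrays against 13.48 and 13.24 on control arrays, also differed more between the phenylephrine replicates than between the groups.

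**Figure D2:**
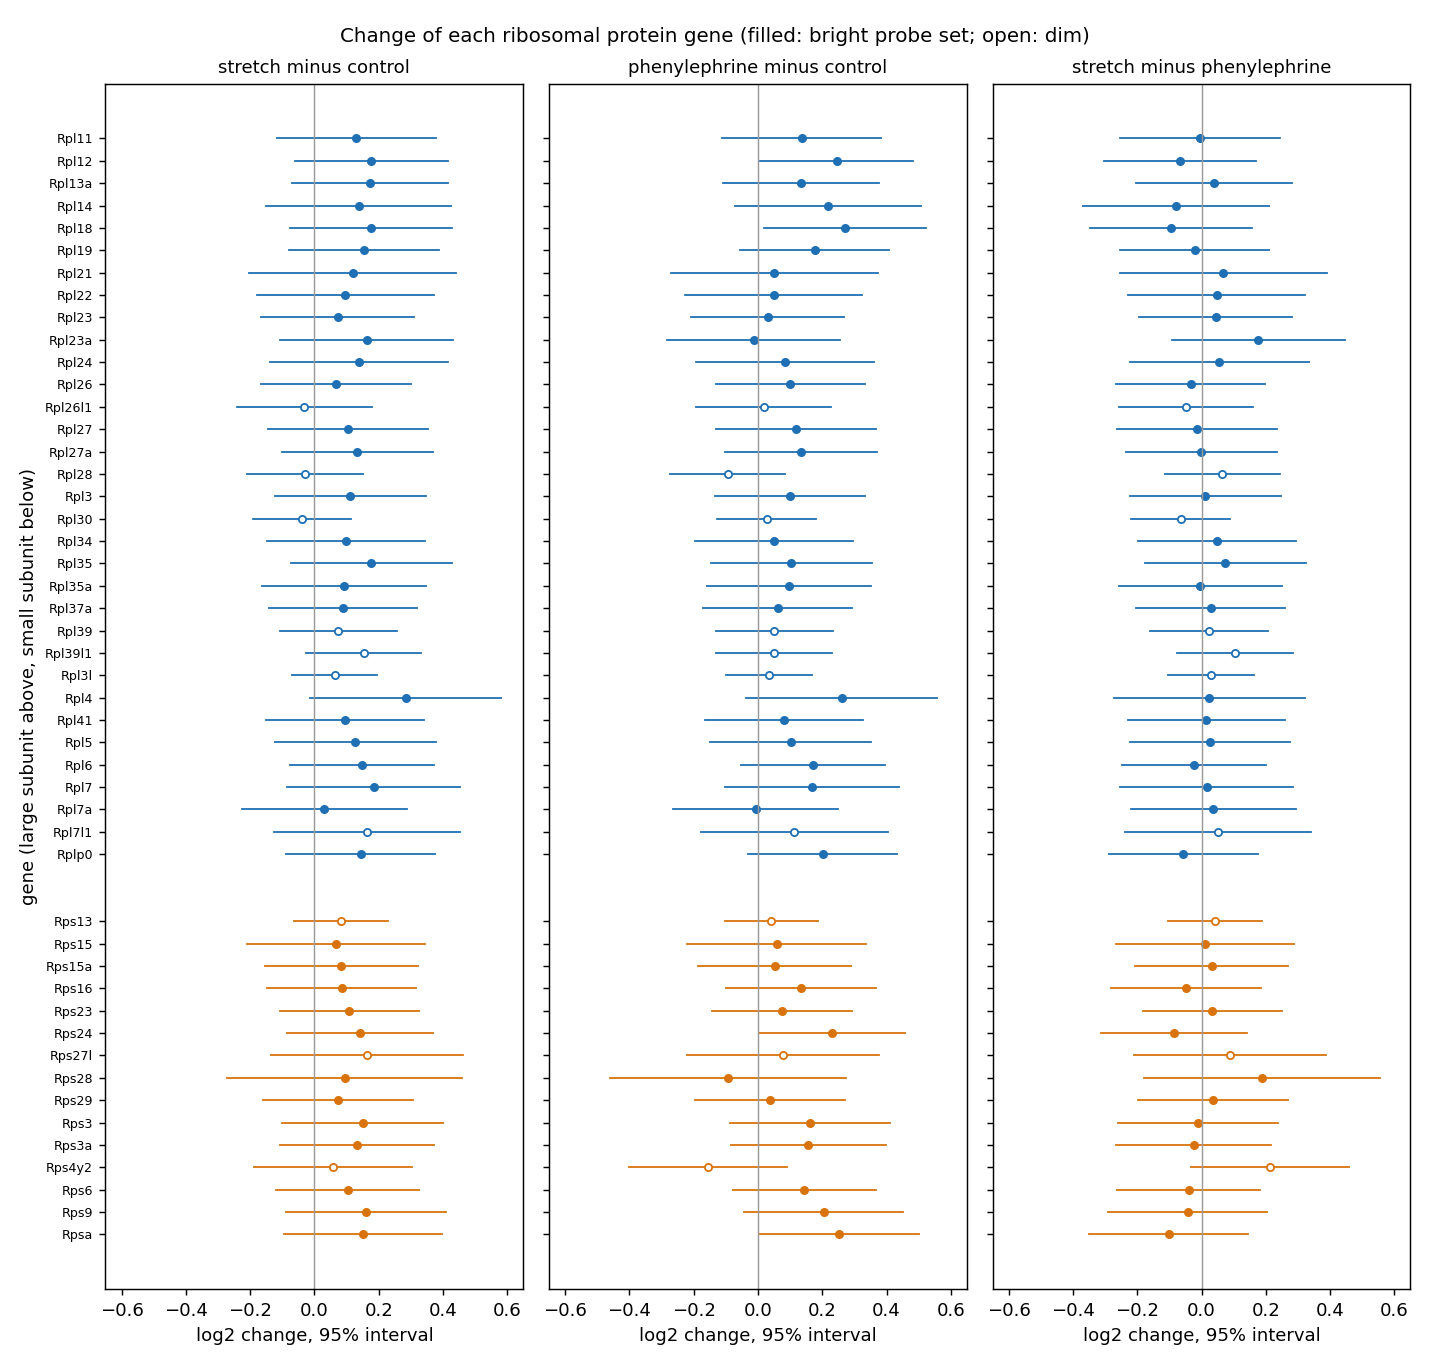
Log2 change of each of the 48 genes with its 95% interval in limma for the 3 comparisons, large subunit (blue) above small subunit (orange); filled dots are bright probe sets and open dots dim ones. The values lie between -0.16 and 0.28, and 4 intervals, those of Rpl12, Rpl18, Rps24 and Rpsa under phenylephrine, do not reach 0.

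Stretch and phenylephrine were also set against each other directly. No member passed, 0 of 48 in limma beside 1.33% of all probe sets, and 0 of 48 had an unadjusted p under 0.05, beside 12.5%. The median was 0.02 log2, against 0.0041 for all probe sets and -0.03 for the 371 other bright ones. Values above 0 were seen in 28 of 48, beside 51.6% of all probe sets and 39.9% of the other bright ones. Stretch arrays lay above phenylephrine arrays without overlap in 2 of 48 members (4.17%), namely Rpl23a and Rps4y2. The share was 21.6% of all probe sets and 13.7% of the other bright ones. The reverse held in 3 of 48 (6.25%), Rpl14, Rpl18 and Rpl30, beside 17.2% of all probe sets and 28.3% of the other bright ones. The sign of the median turned with single arrays, at 0.06 without stretch replicate 1, -0.06 without stretch replicate 2 and -0.02 without phenylephrine replicate 2. The largest values were those of Rps4y2 (0.21 ± 0.11), with 9.63 and 9.47 log2 on stretch arrays, against 9.34 and 9.33 on phenylephrine arrays, Rps28 (0.19 ± 0.16) and Rpl23a (0.18 ± 0.12). The lowest were Rpsa (-0.10 ± 0.11), Rpl18 (-0.10 ± 0.11), Rps24 (-0.09 ± 0.10) and Rpl14 (-0.08 ± 0.12). The smallest adjusted p among the members was 0.482, that of Rps4y2.

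**Figure D3:**
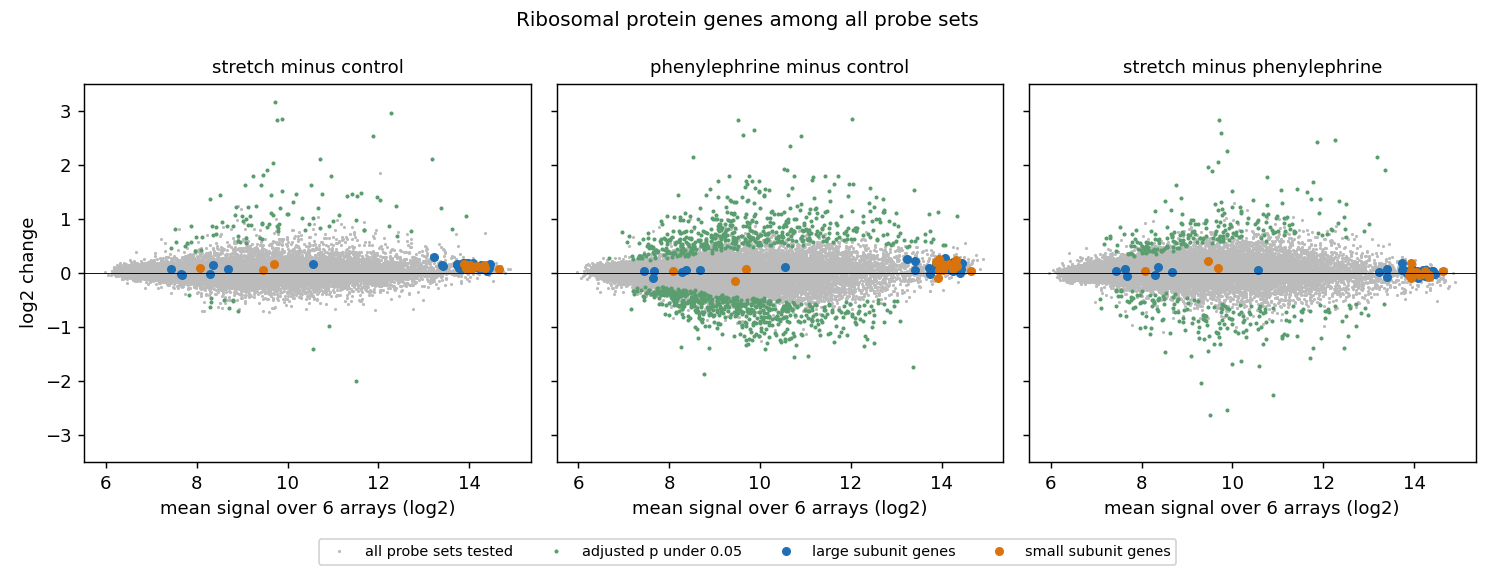
Log2 change against mean signal over the 6 arrays for all 31042 probe sets (grey), those with an adjusted p under 0.05 in limma (green), and the 48 members (blue, large subunit; orange, small subunit), in the 3 comparisons. The members sit near 0 in all panels, 38 of them at the bright end of the scale, and none is among the changed probe sets.

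The large and the small subunit were compared by the medians of their genes. With stretch against control the median was 0.13 log2 over the 33 large subunit genes and 0.10 over the 15 small subunit genes. With phenylephrine against control the medians were 0.10 over the large and 0.08 over the small subunit genes. With stretch against phenylephrine they were 0.02 over the large and 0.01 over the small. The difference between the subunits, large minus small, was thus 0.02, 0.02 and 0.01 log2. The SD over genes was 0.07, 0.08 and 0.06 within the large subunit and 0.04, 0.11 and 0.09 within the small one. No test was made of the difference between the subunits. Under phenylephrine its sign turned to -0.04 over the 26 large and 12 small subunit genes that were bright, and to -0.025 under quantile normalization, where the large subunit median itself was -0.013. On single arrays the median distance from the gene's own mean was alike in large and small subunit, at -0.04 and -0.04 on stretch replicate 1, 0.12 and 0.10 on stretch replicate 2, 0.06 and 0.04 on phenylephrine replicate 1, 0.0054 and 0.011 on phenylephrine replicate 2, 0.013 and -0.0084 on control replicate 1, and -0.14 and -0.15 on control replicate 2. Except on phenylephrine replicate 2 and control replicate 1, both subunits lay farther from 0 than from each other.

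**Figure D4:**
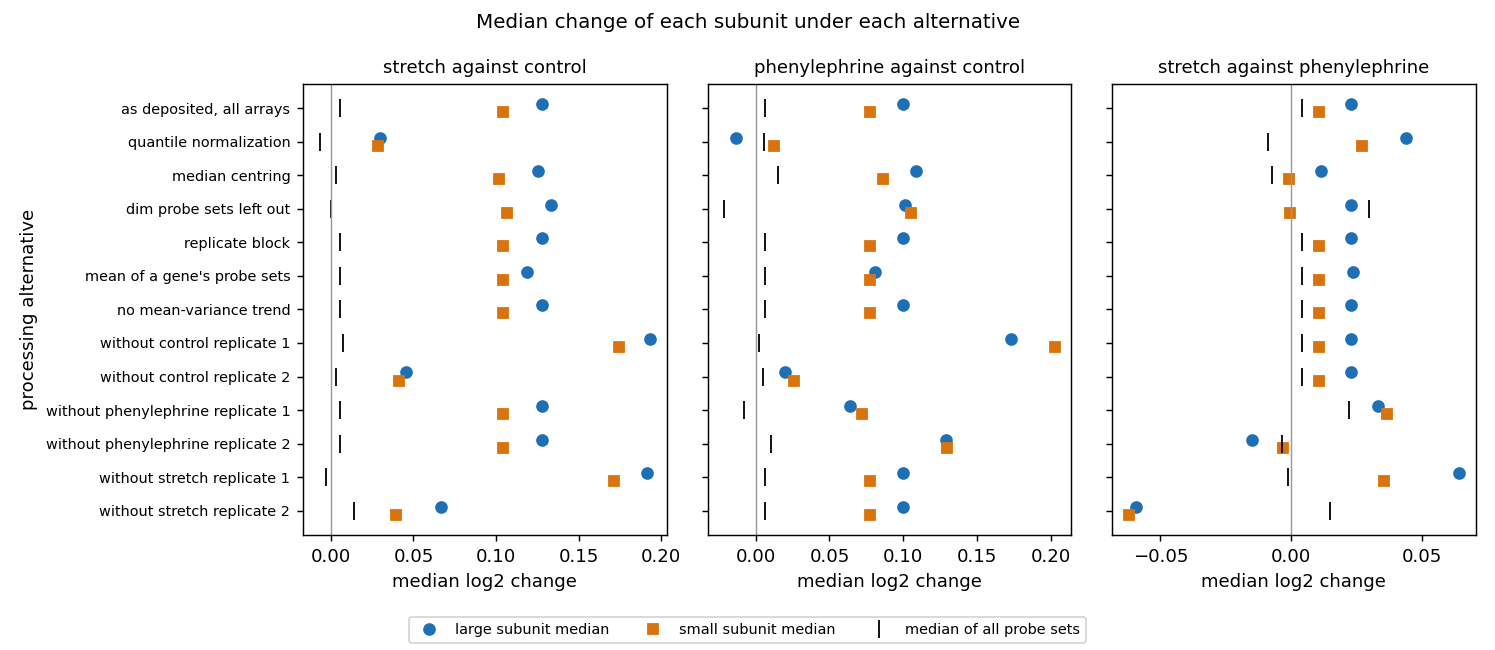
Median log2 change of the large subunit genes (blue circles) and small subunit genes (orange squares) and of all probe sets (black ticks) in the 3 comparisons, as deposited and under each processing alternative. For phenylephrine against control the large and small subunit medians are 0.02 and 0.03 without control replicate 2 and -0.013 and 0.012 under quantile normalization, so that neither the sign of the large subunit median nor the order of the subunits holds under all alternatives.

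Groups of members with a shared place in the ribosome were read next. The stalk genes found, Rplp0 and Rpl12, had 0.14 and 0.18 log2 with stretch and 0.20 and 0.24 with phenylephrine. Rplp0, often used as a reference gene, had 14.20 and 14.35 log2 on stretch arrays, 14.31 and 14.35 on phenylephrine arrays, and 14.23 and 14.04 on control arrays. Rpl5 and Rpl11 form a particle with the 5S RNA that can bind Mdm2 and so stabilize p53 when assembly fails. They had 0.13 and 0.13 log2 with stretch and 0.10 and 0.14 with phenylephrine, and Rpl11 read 14.01 and 14.20 on stretch arrays and 14.10 and 14.11 on phenylephrine arrays, against 14.07 and 13.87 on control arrays. Near the opening of the exit tunnel lie Rpl19, Rpl23a, Rpl26, Rpl35 and Rpl39, with values of 0.07 to 0.18 for stretch and -0.01 to 0.18 for phenylephrine. Rpl4, deeper in the tunnel, had the higher values of 0.28 and 0.26 given above.

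Of the 6 paralogs, some of which replace a regular protein in particular tissues, none passed the test in any comparison, and their unadjusted p-values in limma reached no lower than 0.081. Rpl3l takes the place of Rpl3 in adult heart and skeletal muscle. Its probe set was dim, with 7.50 and 7.44 log2 on stretch arrays, 7.41 and 7.47 on phenylephrine arrays, and 7.44 and 7.38 on control arrays. The stretch arrays lay above the controls by a margin as small as the rounding, and the phenylephrine arrays overlapped them. The change was 0.06 ± 0.06 with stretch and 0.03 ± 0.06 with phenylephrine. Rpl3 itself had 14.15 and 14.36 on stretch arrays, 14.21 and 14.27 on phenylephrine arrays, and 14.20 and 14.08 on control arrays, with changes of 0.11 ± 0.10 and 0.10 ± 0.10. Rpl22 had 0.10 ± 0.12 and 0.05 ± 0.12. Rpl7l1, whose product works in assembly of the large subunit in human cells, had 10.70 and 10.56 on stretch arrays, 10.63 and 10.53 on phenylephrine arrays, and 10.58 and 10.35 on control arrays. Its changes were 0.16 ± 0.13 and 0.11 ± 0.13. Rpl39l1 had 8.53 and 8.36 on stretch arrays, against 8.27 and 8.31 on control arrays, with no overlap and a change of 0.15 ± 0.08 (adjusted p = 1 in limma).

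More than 1 probe set was found for 6 genes, and their readings bear on how far a single value can be taken. Of the 3 probe sets of Rpsa, all of them bright, the brightest gave 0.15 ± 0.11 log2 with stretch and 0.25 ± 0.11 with phenylephrine, and the others gave 0.19 ± 0.10 and 0.31 ± 0.11 with stretch and 0.27 ± 0.10 and 0.31 ± 0.11 with phenylephrine. The 2 probe sets of Rps24, at 14.3 and 8.59 log2, gave 0.23 ± 0.10 and 0.23 ± 0.13 with phenylephrine. For Rpl3 they differed in sign under phenylephrine, with 0.10 ± 0.10 at the bright and -0.08 ± 0.11 at the dim one, and so did those of Rpl14 (0.22 ± 0.12 and -0.06 ± 0.06) and of Rpl7l1 (0.11 ± 0.13 and -0.10 ± 0.11).

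Of the 30 probe sets with several family symbols, 0 passed in limma in each of the 3 comparisons. Of all probe sets 0.345% passed with stretch, 3.6% with phenylephrine and 1.33% between the stimuli. With stretch against control 0 of 30 had an unadjusted p under 0.05, beside 5.54% of all probe sets, and the median was 0.14 log2. With phenylephrine in place of stretch 4 of 30 did (13.3%), beside 16.6%, and the median was 0.15. In the direct comparison of the stimuli 0 of 30 did, beside 12.5%, and the median was -0.02. The 371 other bright probe sets had medians of 0.05, 0.08 and -0.03 log2 in the same 3 comparisons. Those of all probe sets were 0.0056, 0.0060 and 0.0041 log2.

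Members with and without the tract within 10 bases of the annotated start were also set side by side. Over the bright members with a RefSeq window, the median change with stretch was 0.13 log2 in 21 genes with a tract and 0.13 in 11 without. With phenylephrine it was 0.10 with a tract and 0.13 without. Rpl12 and Rps24, with a tract by this rule, and Rpl18 and Rpsa, without one by this rule, were together among the highest with phenylephrine. Annotated starts can be several bases from the true one, so a gene without a tract by this rule may carry one. The split can therefore not show whether the tract makes a difference.

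Genes that work beside the ribosomal proteins were read from lists. The lists were chosen with earlier results of these data known, so the shares below are no test of them. Rack1, a ribosome-bound scaffold outside the symbol rule, had 13.97 and 14.12 log2 on stretch arrays, 14.03 and 14.06 on phenylephrine arrays, and 13.97 and 13.84 on control arrays, with 0.14 ± 0.10 for both stimuli. Of 17 genes found of 22 listed for elongation factors and other mRNAs with a tract, 0 rose and 0 fell in limma in each comparison, and 2 with stretch, 7 with phenylephrine and 2 between the stimuli had an unadjusted p under 0.05. The shares of all probe sets were 5.54%, 16.6% and 12.5%. In the same order 0.345%, 3.6% and 1.33% of all probe sets passed in limma. The 7 with phenylephrine went in opposite directions. Eef1a2, Eef1b2, Eef1d and Eef1g had values of 0.24 to 0.44 log2, and Eif3f, Eif4b and Vim of -0.33 to -0.32. The medians over the 17 genes were 0.10, 0.03 and 0.07 log2 in the 3 comparisons. The largest values were those of Eef1g with stretch (0.28 ± 0.11) and of Eef1a2, the muscle form of elongation factor 1α, with phenylephrine (0.44 ± 0.12; adjusted p = 0.0951). In the direct comparison of the stimuli it was Eif4b, a helicase cofactor (0.37 ± 0.12; adjusted p = 0.267).

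Of 11 genes found of 14 listed around mTOR, with its partners, regulators and targets, Larp1 and Mdm2, 1 rose with phenylephrine, and 0 fell. Of all probe sets 3.6% passed with phenylephrine, in either direction. Eif4ebp1, the inhibitor of cap-dependent translation that mTOR switches off, had 12.55 and 12.48 log2 on phenylephrine arrays, against 11.78 and 11.59 on control arrays, a change of 0.83 ± 0.12 (adjusted p = 0.0116 in limma). With stretch it had 12.27 and 12.18 and a change of 0.54 ± 0.12, which did not pass (adjusted p = 0.2). In that list 0 of 11 passed with stretch, beside 0.345% of all probe sets, and 0 of 11 in stretch against phenylephrine, beside 1.33%. The medians of the list were 0.03 with stretch, -0.13 with phenylephrine and 0.22 log2 between the stimuli. An unadjusted p under 0.05 was seen for 3 of 11 with stretch, beside 5.54% of all probe sets, for 3 of 11 with phenylephrine, beside 16.6%, and for 5 of 11 between the stimuli, beside 12.5%. Larp1 had the largest value in the direct comparison, 0.48 ± 0.19 log2, with 11.39 and 11.38 on stretch arrays, against 11.21 and 10.61 on phenylephrine arrays.

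Of 20 genes listed and found for late assembly and release of the subunits, 0 passed in each comparison. The shares of all probe sets that passed were 0.345% with stretch, 3.6% with phenylephrine and 1.33% between the stimuli. An unadjusted p under 0.05 was seen for 8 of 20 with stretch, beside 5.54% of all probe sets, for 4 of 20 with phenylephrine, beside 16.6%, and for 5 of 20 between the stimuli, beside 12.5%. This list too was chosen with earlier results of these data known. Its medians were 0.25 log2 with stretch, 0.08 with phenylephrine and 0.20 in stretch against phenylephrine. Those of the ribosomal proteins themselves were 0.12, 0.098 and 0.02. The listed genes had mean signals of 8.70 to 12.09 log2, under the limit of 13 for bright probe sets. Rpf2, which helps to place the particle of Rpl5 and Rpl11 in the large subunit in yeast, had 9.41 and 9.31 log2 on stretch arrays, against 8.82 and 8.73 on control arrays. Its change of 0.59 ± 0.12 did not pass (adjusted p = 0.163). Bccip had the largest value with phenylephrine (0.48 ± 0.18; adjusted p = 0.228).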

How the data were processed

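The deposited table holds 1 value per probe set for each of 6 one-colour Affymetrix arrays. The authors' summary, background correction and normalization have no statement in the sources used here, and the deposited values were taken as log2 because of their range. Of 31099 probe sets, 31042 were tested, without the 57 array controls. The platform annotation of 2016 gave 1 symbol for 20826, several for 436 and none for 9780. Of the 48 members 46 matched RefSeq GRCr8 by Entrez identifier. Group means over the 6 arrays came from limma 3.58.1 under R 4.3.3 (lmFit, eBayes with a mean-variance trend), two-sided, adjusted by Benjamini-Hochberg over all probe sets at 0.05, with 3 residual and 4.8 prior degrees of freedom. The fit was also run on simulated data with independent noise on each array. Those data lack the shift that bright probe sets share, and no result here rests on them. Exact permutation of 2 against 2 arrays cannot go below p = 0.333 and was not used. The precision is limited by the number of arrays. Members and lists were chosen with earlier results of these data known. No depth applies to arrays. Named were, per subunit and comparison, the 5 highest and 5 lowest members, and a fixed panel. From each other list up to 4 called genes or the gene with the largest change were named. The limit of 13 log2 for bright probe sets was chosen after values were seen. Alternatives were quantile normalization, median centring, a filter on dim probe sets, the replicate number as a block, the mean of a gene's probe sets, no trend, and each array left out.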

Additional observations from a re-analysis of the deposited data

How the results depend on the processing

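The count of members past the threshold was 0 of 48 in all 3 comparisons under every alternative run (0 of 43 where dim probe sets were left out), while the count over all probe sets ran from 26 to 5384. The replicate numbers are shared by the groups, but the labels do not say that equal numbers belong together. Across all probe sets the differences between replicates 1 and 2 correlated between groups by 0.49 to 0.67. With the replicate block the calls over all probe sets were 1028 (107 without it) with stretch, 5384 (1117) with phenylephrine and 3734 (413) between the stimuli, and 0 members passed with the block in each. Under quantile normalization, which gave 386, 2790 and 1527 calls, the median of the large subunit was 0.030 log2 with stretch and -0.013 with phenylephrine, and large minus small was 0.000942 with stretch and -0.025 with phenylephrine. Under phenylephrine large minus small was -0.00425 with dim probe sets left out and 0.00349 with the mean of a gene's probe sets. With 1 array left out, where a lone array is assumed to vary like the other groups, large minus small ran from 0.0041 to 0.027 with stretch, from -0.029 to 0.023 with phenylephrine and from -0.012 to 0.029 in stretch against phenylephrine. The small subunit median ran from 0.026 to 0.20 with phenylephrine. Of 1353 values of the 38 named members under alternatives, 97 moved by more than the SD between replicates, and 0 passed the threshold. Part of the 1353 values could not move, so the count of 97 does not measure how stable the changes are. The replicate block, the fit without trend and the filter on dim probe sets leave a gene's log2 change as it was. So does the loss of an array outside the comparison, or the mean of probe sets for a gene with 1 probe set. The cause of the shifts under the other alternatives was not tested.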
